A study of Nematostella vectensis with 17 samples.

Results

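The gene models described here are 20 of the 25729 in the count table of a study of the sea anemone Nematostella vectensis. They were chosen by their measured levels in gastrula embryos. Levels are given as CPM, the count of a gene model scaled to the total count of its library. Each member stood below 1 CPM in all 4 libraries from embryos with a control morpholino. Its mean with each of 2 morpholinos against brachyury was at least 2 times the control mean, and its mean over the 10 brachyury morpholino libraries was at least 1 CPM. Every one of those 10 libraries also had to lie above every control library. The rise from control to morpholino was therefore fixed by the choice, and it is described without support from a test.

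The RNA came from whole embryos raised at 21 °C, and the comparison was between a control morpholino (4 libraries), a translation-blocking brachyury morpholino (6 libraries) and a splice-blocking brachyury morpholino (4 libraries). The labels give 500 µM and 3 to 5 pl for either brachyury morpholino, and no sequence, concentration or volume for the control one. A difference in dose and the effect of the target cannot be told apart. No strain, transgene or mutation is named for any group, and the labels call the replicates biological. They state 6 replicates, a number that only the translation group reached. Why the control and splice groups hold 4 libraries each is not given. The series also held 3 ChIP-seq samples, which were not used here because the gene models had no positions on the genome of the peak lists.

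Brachyury is a T-box transcription factor that binds DNA and regulates its target genes. In vertebrates it is known for its part in forming the mesoderm and the notochord. In Nematostella it is expressed around the blastopore of the gastrula, the opening that becomes the mouth. Morpholinos are synthetic oligomers that pair with a chosen RNA and keep it from being translated or spliced. The aim of using a pair of morpholinos with different target sites is to set apart changes that both produce.

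Both oligomers are shown because the choice of the members rests on them. They are written 5′ to 3′ as the labels give them, and each is 25 bases long with 56% G and C. The capitals mark the single CAT of the translation-blocking oligomer, at bases 12 to 14, which is the reverse complement of an ATG. The splice-blocking oligomer also holds 1 CAT, from base 16, which is left in lower case.
BraATGMO: tcgtccgagtgCATgtccgactatg
BraSpliceMO: tccctggttgtcaaccataccgtcc
The longest run of bases that both share in the same orientation is 5.

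Library totals ran from 12289649 to 80132810 counts. The deepest was control library 1, against 15236154 to 19126076 in controls 2 to 4. The gene models come without names, and the RefSeq gene table of jaNemVect1.1 held 0 of their identifiers, so no function can be given to any member. For the same reason neither brachyury itself nor markers of the gastrula were checked. Since these are whole embryos, more cells of a type and more RNA per cell cannot be told apart.

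The members were low in control embryos but not silent. All 80 values, 20 members in 4 control libraries, had counts above 0, from 2 counts (0.131 CPM) to 67 counts, and the highest control level was 0.941 CPM. Only 3 of the 80 values rested on 3 counts or fewer. In control library 1, whose depth gives the closest reading, the members had 18 to 67 counts. The label "switched on" therefore goes further than the data, which show a low level that was higher with the morpholinos.

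None of the 221 gene models without a count in any control library reached the mean of 1 CPM with the morpholinos. The highest such mean was 0.123 CPM. The members therefore came from gene models with some signal in the controls.

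**Figure D1:**
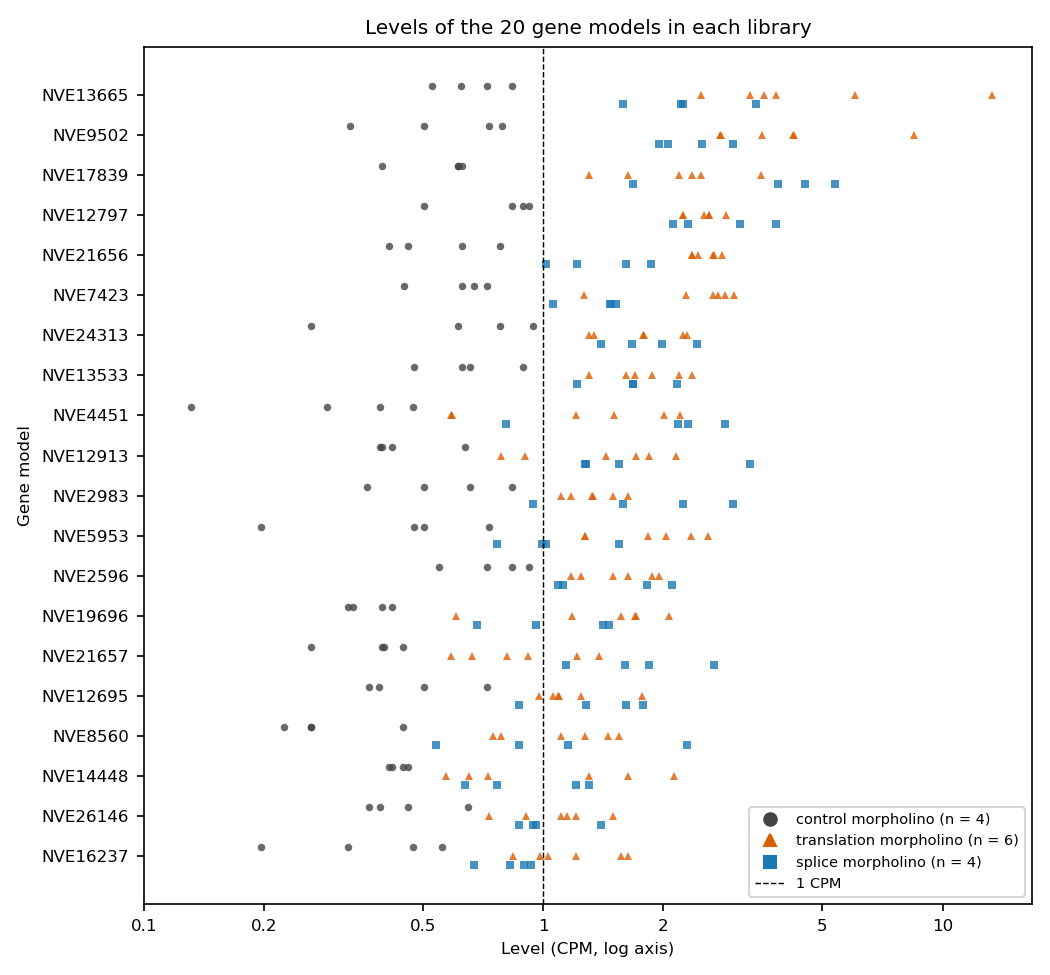
Level of each of the 20 gene models (rows) in each library in CPM on a log axis, with 1 point per library, circles for the 4 control, triangles for the 6 translation and squares for the 4 splice libraries; the dashed line is 1 CPM. The controls lie between 0.131 and 0.941 CPM, and NVE13665 reaches 13.3 CPM in a translation library.

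Control means ran from 0.299 to 0.786 CPM (median 0.528). The means were 0.928 to 5.42 CPM with the translation morpholino (median 1.52) and 0.832 to 3.87 CPM with the splice morpholino (median 1.61). Against control this was 2.06 to 7.99 times in the translation group and 2.02 to 6.89 times in the splice group, with medians of 3.20 and 2.97. Most members moved by a small step at a low level. In 12 of the 20 both ratios were under 4, and in 14 the mean over the 10 libraries stayed under 2 CPM. Only 2 members, NVE9502 and NVE4451, reached 4 times control with both morpholinos.

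Summed over the 20 members, the level was 10.5 ± 1.08 CPM in controls (SD, n = 4), 39.0 ± 6.29 in the translation group (SD, n = 6) and 34.6 ± 3.09 in the splice group (SD, n = 4). The single libraries ran from 9.45 to 11.8, from 32.9 to 49.6 and from 31.1 to 37.6 CPM. The summed levels of the brachyury morpholino groups overlapped.

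In the fit across all gene models (edgeR's quasi-likelihood test with libraries scaled by TMM), all 20 members were called higher in the translation group and 19 in the splice group at a Benjamini-Hochberg adjusted p under 0.05. Of the 22109 gene models tested, 9.96% and 5.75% were called higher. These are the contrasts that chose the members, and nothing is read from the counts. The member not called was NVE14448 with the splice morpholino, at a log2 fold change of 1.26 ± 0.42 (SE, edgeR adjusted p = 0.065). DESeq2, an edgeR fit of the splice and control libraries alone, and the fit without translation library 1 did call it. The median log2 fold change of the members was 1.70 with the translation and 1.67 with the splice morpholino, against medians of -0.0077 and 0.00081 over all gene models tested. Both comparisons share the 4 control libraries. The authors' deposited table, which compares translation with control, also has all 20 at an adjusted p under 0.05, with log2 fold changes of 1.17 to 3.07. Of the gene models with an adjusted p in the authors' deposited table, 11.2% are called higher.

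**Figure D2:**
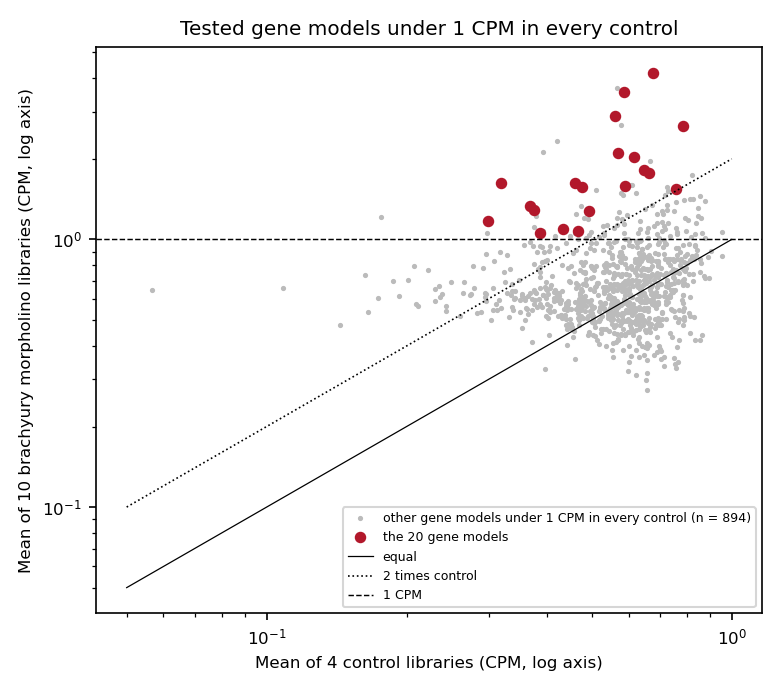
Mean CPM over the 10 brachyury morpholino libraries (vertical, log axis) against mean CPM over the 4 control libraries (horizontal, log axis) for the tested gene models under 1 CPM in every control. Red points are the 20 members, grey points the other 894; the solid line marks equal levels, the dotted line 2 times control and the dashed line 1 CPM.

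The members were a small part of the gene models that were low in controls. Below 1 CPM in all 4 controls were 4476 gene models (17.4% of the table), and 113 of these had a mean of at least 1 CPM with the morpholinos. At least 2 times control with both morpholinos were 34 of the 113, and in 20 of the 34 no morpholino library fell to the level of a control. Over all gene models tested, 2.68% had every morpholino library above every control. That share carries no condition on level or ratio. The 34 already met both, which favours separation, so the shares are not alike. A further 133 gene models met every other condition but reached 1 CPM in a control library.

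Gene models close to a limit show how narrow the choice was. The highest control levels among members were 0.941 CPM for NVE24313 and 0.919 for NVE12797. NVE26154 (1.12 CPM) and NVE3913 (1.17) lay just outside. The lower of the ratios to control was 2.02 for NVE2596 and 2.15 for NVE16237, and 1.86 for NVE25668 and 1.78 for NVE16688 outside. In mean level NVE16237 (1.06 CPM) and NVE26146 (1.08) were just inside, and NVE12179 (0.949) and NVE8791 (0.799) just outside. For NVE5953 and NVE2983 the lowest morpholino library was 1.05 and 1.13 times the highest control, while for NVE20703 and NVE3866 it was 0.955 and 0.868 times.

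NVE13665 had the highest mean with the morpholinos. Its control libraries stood at 0.624, 0.525, 0.725 and 0.837 CPM. The translation libraries ran from 2.48 to 13.3 CPM with a median of 3.70, and the splice libraries stood at 3.42, 2.22, 1.59 and 2.24 CPM. Translation library 4 held the 13.3 CPM, and the next library 6.04. The translation mean was 5.42 ± 4.04 CPM (SD, n = 6), or 7.99 times control. Without translation library 4 it was 3.84 ± 1.33 CPM (SD, n = 5), or 5.67 times control. The log2 fold change against control was 3.06 ± 0.47 (SE) with the translation and 1.89 ± 0.50 (SE) with the splice morpholino. Without control library 1, control library 2 or splice library 1 the splice call was lost (edgeR adjusted p = 0.083, 0.067 and 0.069).

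NVE9502 was next in level and shared that high library. It stood at 0.786, 0.328, 0.502 and 0.732 CPM in controls. With the translation morpholino it ran from 2.77 to 8.47 CPM (median 3.88), and with the splice morpholino it stood at 2.05, 1.95, 2.99 and 2.5 CPM. The highest value was again in translation library 4, and the next library held 4.25 CPM. Its ratio to control was 7.39 with the translation morpholino, 5.98 without that library, and 4.04 with the splice morpholino. Its lowest morpholino library was 2.48 times the highest control, the highest such ratio among the members.

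NVE17839 was the member with the highest splice mean. Its controls stood at 0.611, 0.394, 0.614 and 0.627 CPM. The translation libraries ran from 1.30 to 3.51 CPM (median 2.27), and the splice libraries stood at 4.54, 1.68, 3.88 and 5.38 CPM. Splice library 2 lay among the translation libraries and the other 3 above all of them. The log2 fold change against control was 2.04 ± 0.37 (SE) and 2.84 ± 0.39 (SE), a ratio of 3.997 and 6.89.

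NVE12797 was the steadiest member. The highest of its 10 morpholino libraries was 1.81 times the lowest. It stood at 0.836, 0.919, 0.502 and 0.889 CPM in controls, from 2.24 to 2.87 with the translation morpholino (median 2.57), and at 2.30, 3.83, 3.11 and 2.11 with the splice morpholino. The lowest morpholino library was 2.30 times the highest control, and the ratios to control were 3.20 and 3.61. NVE24313 and NVE2596 followed, with the highest library at 1.86 and 1.93 times the lowest. Over all members this ratio ran up to 8.37, with a median of 3.27.

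NVE4451 had one of the lowest control means and one of the widest ranges. Its controls stood at 0.287, 0.131, 0.390 and 0.471 CPM, the lowest of them on 2 counts, which is under the 3 counts taken as the floor (0.197 CPM in that library). The translation libraries ran from 0.586 to 2.2 CPM (median 1.36), and the splice libraries stood at 2.17, 0.807, 2.86 and 2.30 CPM. The lowest morpholino value was 1.25 times the highest control. The ratios to control were 4.22 and 6.37.

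Beside these 5 members and the 3 that differed between the morpholinos, the other 12 had means over the 10 libraries of 1.06 to 1.82 CPM. The lowest were NVE26146 (1.08) and NVE16237 (1.06), and the highest NVE24313 (1.82) and NVE13533 (1.78). NVE24313 stood at 0.611, 0.262, 0.781 and 0.941 CPM in controls, from 1.30 to 2.28 in the translation group and from 1.40 to 2.42 in the splice group. NVE13533 stood at 0.474, 0.656, 0.892 and 0.627 CPM in controls, from 1.30 to 2.36 in the translation group and from 1.22 to 2.16 in the splice group. In both, the morpholino groups overlapped each other and lay above the controls. Among them the lowest ratios to control were those of NVE2596, at 2.06 with the translation and 2.02 with the splice morpholino.

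The spread between libraries of a group differed among the members. It was measured as the variance over the value that counting alone would give, an index of 1 for pure counting noise. The median index over the members was 1.22 in controls, 1.89 in the translation group and 1.90 in the splice group. Over the 4051 tested gene models with means in the same range it was 2.79, 2.70 and 2.33. The members were selected for arms that do not overlap, which favours a small spread, so nothing is read from the lower medians. The index was 51.3 for NVE13665 and 18.9 for NVE9502 in the translation group, and 9.73 for NVE17839 in the splice group.

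**Figure D3:**
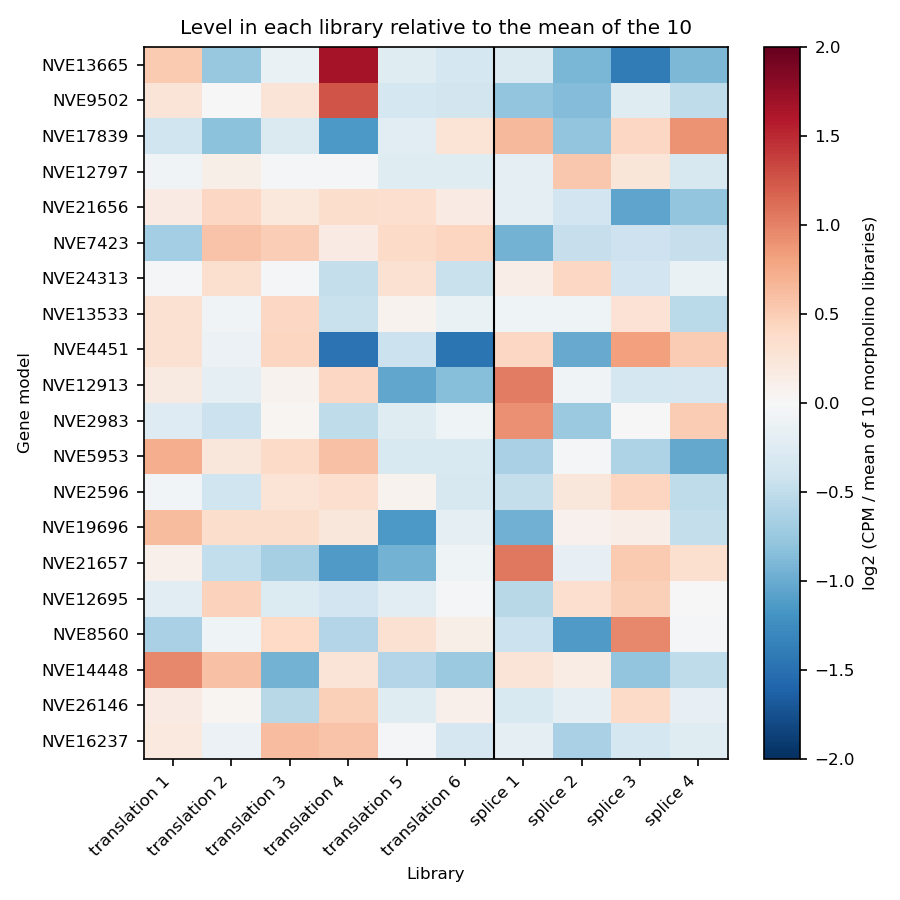
Level of each member (rows) in each of the 10 brachyury morpholino libraries (columns), as log2 of its CPM over its mean of the 10; red is above and blue below that mean, and the black line parts the 6 translation from the 4 splice libraries. NVE13665 and NVE9502 are highest in translation 4, where NVE17839, NVE4451 and NVE21657 are low.

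Within a single library, members deviated from their group in different directions. Translation library 4 was the highest of its group for 5 members and the lowest for 7, so it lay at an end for 12 of the 20, against 3 to 7 for the other translation libraries. It was lowest for NVE17839, NVE4451, NVE2983 and NVE21657, at 1.30, 0.586, 1.11 and 0.586 CPM. The same 4 members were lowest of the splice group in splice library 2, at 1.68, 0.807, 0.941 and 1.14 CPM. This set of 4 was picked after its values were seen and was not tested. NVE13665 and NVE9502 made up 43.8% of the members' summed level in translation library 4. Without them that library summed to 27.9 CPM, within the 26.8 to 31.9 CPM of the 6 translation libraries.

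The difference between the morpholinos was not itself a condition of the choice. The rule used the same libraries, however, and asked both groups to lie above the controls, which limits how far they can part. The test of the difference is therefore not fully independent of the choice. Called by edgeR in the fit of all 14 libraries were 3 of the 20 members (15%), and of all gene models tested 12.8% were called in either direction. The members' share lies near that background. With an unadjusted p under 0.05 were 7 of the 20, against 28.7% of all gene models tested. The log2 difference (splice minus translation) was above 0 in 10 members and below 0 in the other 10, with a median of -0.033 against 0.011 over all gene models tested. The median absolute difference was 0.43 in the members and 0.25 over all gene models. It was 0.33 over the 4051 tested gene models whose mean over the 14 libraries lay within the members' range of 0.866 to 3.19 CPM. Among the 17 members not called, the standard errors were 0.19 to 0.42 log2 units. Differences well above 1 standard error also went uncalled, up to the -1.16 ± 0.42 (SE) of NVE13665. A member not called is therefore not shown to be equal with both morpholinos. Of the 133 gene models that met the same rule except for a control at 1 CPM or more, 6 (4.51%) were called; the shares were not compared by a test.

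**Figure D4:**
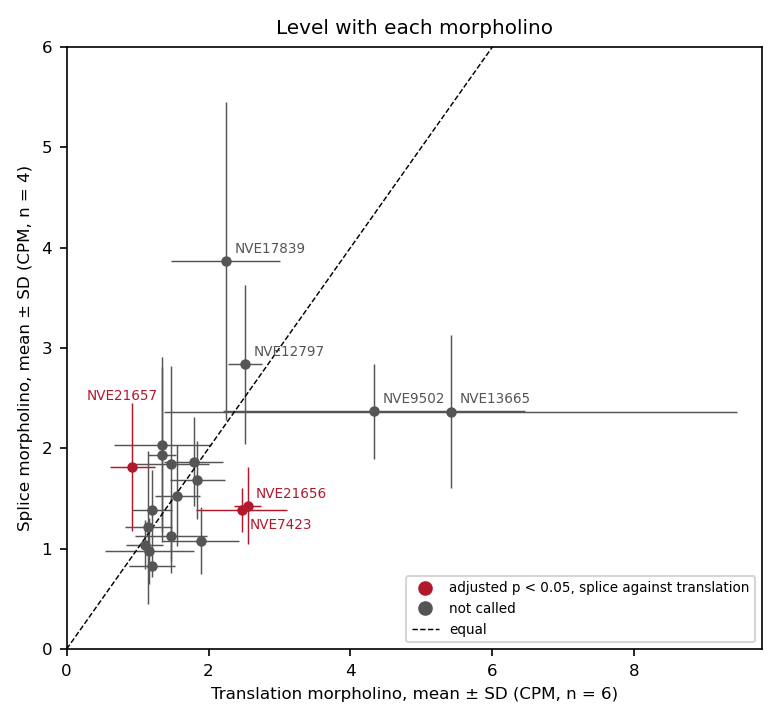
Mean CPM ± SD with the splice morpholino (vertical, n = 4) against the translation morpholino (horizontal, n = 6) for the 20 members; the dashed line marks equal levels and red marks the 3 members called between the morpholinos. NVE21656 and NVE7423 lie below the line and NVE21657 above it.

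NVE21656 was lower with the splice than with the translation morpholino. Its controls stood at 0.412, 0.459, 0.781 and 0.627 CPM. The translation libraries ran from 2.36 to 2.81 CPM (median 2.55), and the splice libraries stood at 1.86, 1.61, 1.02 and 1.22 CPM. The groups did not overlap, which held for no other member, or 1 of 20, against 10.2% of all gene models tested. The log2 difference was -0.80 ± 0.23 (SE, edgeR adjusted p = 0.032). The call was lost without translation library 2 (edgeR adjusted p = 0.053), translation library 4 (0.053), splice library 3 (0.094) or splice library 4 (0.087). Its translation libraries were the closest together of any member, with an index of 0.26.

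NVE21657 differed in the opposite direction. It stood at 0.399, 0.394, 0.446 and 0.261 CPM in controls, from 0.586 to 1.38 with the translation morpholino (median 0.864), and at 2.67, 1.14, 1.84 and 1.6 with the splice morpholino. Splice library 2 lay inside the translation range and the other 3 splice libraries above it. The log2 difference was 0.96 ± 0.29 (SE, edgeR adjusted p = 0.039). The call was lost when any of 8 libraries was left out, namely control 2, translation 2, 3, 4 or 5, or splice 1, 3 or 4, with edgeR adjusted p = 0.053 to 0.16. NVE21656 and NVE21657 are the only members with consecutive identifiers. Their order on the genome, and whether reads were shared between them, is not known from the files used here.

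NVE7423 was also lower with the splice morpholino. Its controls stood at 0.449, 0.722, 0.669 and 0.627 CPM. The translation libraries ran from 1.26 to 3.00 CPM (median 2.70), and the splice libraries stood at 1.06, 1.48, 1.52 and 1.47 CPM. Translation library 1, at 1.26 CPM, lay inside the splice range and the other 5 above it. The log2 difference was -0.80 ± 0.25 (SE, edgeR adjusted p = 0.048). It missed the threshold when any of 12 libraries was left out, all but control 1 and translation 1, with edgeR adjusted p = 0.053 to 0.14.

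The members with the next smallest adjusted p were not called. NVE13665 was 1.16 ± 0.42 log2 units lower with the splice morpholino (SE, edgeR adjusted p = 0.076). Among the alternatives it was called by DESeq2, without translation library 2, and with libraries of consecutive title numbers paired, and the difference was -0.66 without translation library 4. NVE9502 differed by -0.83 ± 0.31 (SE, edgeR adjusted p = 0.09) and NVE17839 by 0.80 ± 0.31 (SE, edgeR adjusted p = 0.1). NVE17839 was called without translation library 6 or splice library 2. At the other end, NVE2596 stood at 1.56 ± 0.320 CPM in translation libraries (SD, n = 6) and 1.53 ± 0.506 CPM in splice libraries (SD, n = 4), a log2 difference of 0.00 ± 0.22 (SE).

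The rule was also applied with each library left out in turn, and the left-out library was then read. Only that library took no part in the choice. The libraries of the other arm that it was set against did take part, so the shares are in part fixed by the choice. The gene models given beside them were not selected for separated arms, and the shares are therefore a description. Without any single morpholino library it gave 18 to 23 gene models. The held-out library then lay above every control in 86.4% to 100% of them. Among the 914 tested gene models below 1 CPM in all controls, 26.8% to 42.9% had that library above every control. The share was 100% for translation library 3 and splice libraries 2 and 3.

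With a control library held out, the rule gave 19 to 34 gene models. The held-out control was below 1 CPM and below every morpholino library in 94.7% of them for control library 2 and 82.6% for control library 1. For control libraries 4 and 3 the shares were 61.8% and 61.3%. The same held for 7.30% to 14.7% of the tested gene models below 1 CPM in the other 3 controls. Without control library 4 the list grew to 34 gene models, and without control library 3 to 31. All 20 members stayed in the former list and 19 in the latter.

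**Figure D5:**
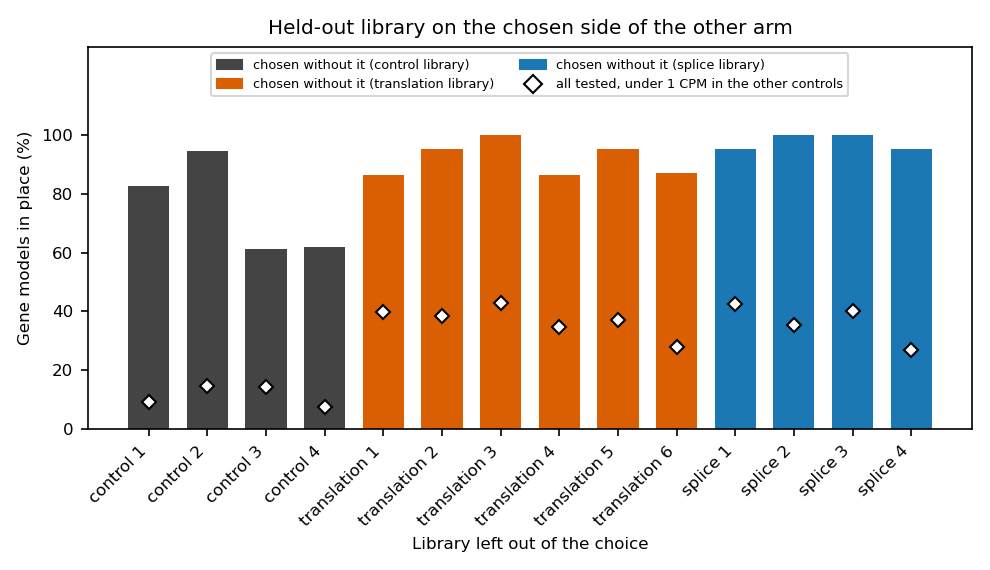
Share of the gene models chosen without a library (bars, in percent) in which that held-out library lay on its own side of the other arm: above every control for a morpholino library, and below 1 CPM and every morpholino library for a control. Diamonds give the same share over all tested gene models below 1 CPM in the other controls (for a morpholino library, in all controls). The bars of controls 3 and 4 stand at 61.3% and 61.8%.

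The labels number the libraries, and the numbers also divide them. Up to 52970 lie controls 1 and 2, translation libraries 1 to 3 and splice libraries 1 to 3, and the later numbers hold 2 control, 3 translation and 1 splice library. What the numbers stand for is not given. For the members, the median ratio to control was 4.07 with the translation and 3.52 with the splice morpholino in the earlier libraries, and 2.80 and 2.71 in the later ones. At least 2 times control were 19 members with each morpholino in the earlier libraries, and 17 and 13 in the later ones. The lowest ratio in the later libraries was 1.25, with the splice morpholino. Both sets of libraries took part in choosing the members. Ratios above 1 in either set were therefore fixed by the choice, and the numbers of members at 2 times control were fixed in part. They are a description and not a repeat of the result.

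With this division, choice and reading can rest on different libraries. The rule applied to the earlier libraries alone gave 139 gene models, with median ratios to control of 3.49 (translation) and 3.53 (splice). In the later libraries, which share no control with them, the medians of the same gene models were 1.5 and 1.57. At least 2 times control with both morpholinos were 18 of the 139 (12.9%), against 3.54% of the tested gene models below 1 CPM in the earlier controls. Higher than control with both were 89 (64.0%), against 29% of the same tested gene models. In the reverse direction the later libraries gave 17 gene models, with median ratios of 3.16 and 2.95. In the earlier libraries these had medians of 3.23 and 2.90, and 12 of them (70.6%) stood at least 2 times control with both, against 9.2% of the tested gene models below 1 CPM in the later controls. Higher than control with both were 16 (94.1%), against 35.7% of these. The lists shared 10 gene models, 7.19% of the earlier and 58.8% of the later list. The later list rests on 6 libraries and the earlier on 8, and the later list's splice level on 1 library. The tested gene models given beside the lists did not have to reach a mean of 1 CPM with the morpholinos. They had also been filtered for low counts on the libraries of both sets. They are therefore not alike in level to the lists, and the shares are a description.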

How the data were processed

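The deposited table holds raw counts per library for 25729 gene models, beside 92 spike-in rows with a sum of 0, which were dropped. BWA, DESeq2 1.6.0, Subread 1.6.2, STAR 2.5.3a, featureCounts and cutadapt 1.8.1 are listed, with no step named, per the submitters' processing notes. Annotation and strand setting are not given in the sources used here. Reads of overlapping, antisense or near-identical genes could therefore be split or shared. The authors also deposited normalized group means, treated as a score, which show that their comparison is translation over control. Its log2 fold change and adjusted p-value were copied from the authors' table.

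CPM used the column sum over gene models. Gene models kept by filterByExpr (22109) were tested with edgeR 4.0.16 in R 4.3.3 (TMM scaling, quasi-likelihood test, 3 group means over all 14 libraries, two-sided, Benjamini-Hochberg adjustment, threshold 0.05). The method was tested on simulated data. Standard errors were taken from the F statistic, as the absolute fold change (log2) per unit of its square root. DESeq2 1.42.0 and limma-voom (limma 3.58.1) were alternatives. Descriptions used Python 3.11.15 and pandas 2.3.3.

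Replicates were single libraries, called biological by the labels. In all 27 within-group pairs the counts differed beyond sampling noise (chi-square per degree of freedom 7.79 to 50.7). Depth was 12289649 to 80132810 counts, and a floor of 3 counts is 0.0374 to 0.244 CPM. The floor covers counting error only. Every library column was matched to a sample.

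The gene models named are those with the 8 highest means over the morpholino libraries, those called between the morpholinos, the 3 with the widest and the 3 with the narrowest range over these libraries, and the 2 on each side of every limit. Others were named after their values were seen. The lists of named marker and pathway genes could not be used, since no names were matched. The members, lists and rules were chosen with earlier results of these data known.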

Additional observations from a re-analysis of the deposited data

Results flagged for a closer look

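In 63 sets of values (20 members and their sum, in 3 groups each) a library was examined for standing apart from the rest of its group, by its gap to the nearest library over the group's range. In 7 sets it did. For independent, normally spread values the limits used would be passed in about 1 in 20 sets, or 3.15 of 63. The sets here share libraries, hold low counts and include sums of the members. Whether 7 is more than chance would give was therefore not tested. Translation library 4 stood apart for NVE13665 (gap over range 0.671, 13.3 CPM against 6.04 in the next library) and for NVE9502 (0.739, 8.47 against 4.25 CPM). Splice library 1 was low for NVE7423 (0.888, 1.06 against 1.47 CPM) and high for NVE12913 (0.864, 3.29 against 1.55 CPM). Translation library 2 was high for NVE12695 (0.661, 1.76 against 1.24 CPM). Among controls, library 2 was low for NVE17839 (0.932, 0.394 against 0.611 CPM, on 6 counts) and library 1 high for NVE12913 (0.887, 0.636 against 0.418 CPM).

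By the edgeR test of the difference between the morpholinos, 3 of the 20 members were called (15%), against 12.8% of all gene models tested. Each call was lost when any of 4 (NVE21656), 8 (NVE21657) or 12 (NVE7423) single libraries was left out. On the log2 scale, splice minus translation, NVE21656 stood at -0.803, NVE7423 at -0.802 and NVE21657 at 0.962.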

How the results depend on the processing

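The rule gave 21 gene models with TMM or DESeq2 scaling, all 20 members among them. With every library thinned to the shallowest in a single random draw it gave 19, of which 12 were members. Another draw could give other numbers. Other limits gave 5 (control ceiling 0.5 CPM), 41 (ceiling 2 CPM), 8 (3 times control), 6 (mean of 2 CPM) and 34 (overlap with controls allowed). The earlier-numbered libraries gave 139. Leaving out 1 library gave 18 to 34.

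Of the 3 members called between the morpholinos, 1 was called with the title number (up to 52970 or later) as a covariate and 1 with control libraries left out of the fit. By edgeR 0 were called at an adjusted p under 0.01, where 7 had an unadjusted p under 0.05. In the earlier libraries 0 were called (4 unadjusted) and in the later ones 0 (2 unadjusted). DESeq2 called 4 and limma-voom 2 on all libraries. Leaving out 1 library gave 0 to 3. NVE21656 had an adjusted p under 0.05 in 19 of 27 alternatives, NVE21657 in 14 and NVE7423 in 7. The 27 include the reading at 0.01, which repeats the adjusted p of the fit of all libraries. It therefore counts among the 19, 14 and 7, although 0 were called there. The lowest edgeR, DESeq2 or limma adjusted p was 0.017, 0.020 and 0.014, and no direction changed.

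Against control, the later libraries alone gave 0 calls by edgeR with either morpholino (17 members with the translation and 11 with the splice morpholino at an unadjusted p under 0.05). They hold 1 splice library, assumed to vary like the other groups. Leaving out 1 library gave 18 to 20 translation and 14 to 20 splice calls. The labels give no shared replicate numbers, but the title numbers of 4 translation and 4 splice libraries follow each other. What they stand for is not stated, and this pairing was chosen after seeing the data. Deviations from the group mean correlated at 0.39, 0.47, 0.28 and 0.034 across gene models in these pairs. In each pair, that splice library correlated more with the translation library than the other splice libraries did. The fit of all libraries did not use the pairs. With the pair as a replicate block 4 members were called (NVE13665, NVE9502, NVE5953 and NVE21657), and 2 in the same 8 libraries without it (NVE9502 and NVE5953). Neither fit called NVE21656 (edgeR adjusted p = 0.058 with the block and 0.068 without) or NVE7423 (0.090 and 0.16). For members near 3 counts per control library, depth limits the ratio to control.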
